A study of Mus musculus with 16 samples.

Results

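The mouse miRNAs miR-297, miR-466, miR-467 and miR-669 and their lettered relatives form a large group of related mouse miRNAs. On the array they were all mouse entries with 1 of these 4 numbers, with any letter, copy number or arm, and they came to 61 of 1881 mouse miRNAs: 3 of miR-297, 23 of miR-466, 12 of miR-467 and 23 of miR-669. Serum came from male mice aged 4, 8, 36 and 58 weeks, 4 mice per age and 1 array per mouse, and the labels give no strain or treatment. Total RNA of each serum (1 ng per the labels) was labelled with Cy3 and hybridized to a 1-colour Agilent array, with the aim of finding serum miRNAs that change with age. Each member was read from 30 spots of 1 to 4 probes.

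Most of these miRNAs lie in 1 intron cluster of Sfmbt2, a Polycomb-group gene that in mice is expressed from the paternal copy in placenta and other extraembryonic tissue. The cluster grew in rodents by repeated duplication, and many of its mature miRNAs are built from runs of UG on the 5p arm or of AC and AU on the 3p arm. A miRNA is cut from a hairpin whose left side gives the 5p and whose right side the 3p miRNA, and bases 2 to 8, the seed, carry most of the pairing with target mRNAs. In the RefSeq gene table (GRCm38.p6), 71 of the 81 loci with these numbers lay inside Sfmbt2 on chromosome 2 and 10 lay elsewhere. By these loci 49 members came from Sfmbt2 alone, 8 from elsewhere alone and 3 from both, and miR-466a-5p was not matched. The name Sfmbt2 cluster therefore did not hold for all members, and it held for 1 of the 4 that were tested below: miR-466h-3p lies in Sfmbt2, while miR-466i-5p lies on chromosome 13, miR-669n on chromosome 3 and miR-467f on chromosome 11.

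Mature sequences were taken from RefSeq (GRCm38.p6), which gave one for 7 of the 61 members. They are shown because they carry the 2 kinds of repeat found in this group, and because 1 of them, miR-669n, is compared below with miRNAs outside the group that carry the same kind. Each is written 5′ to 3′ with the seed in capitals. The members with a UG run are given first. The first was called detected on 10 of the 16 arrays, the next on 1 and the last on none.
miR-669n: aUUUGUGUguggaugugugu
miR-466j: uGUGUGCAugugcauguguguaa
miR-466k: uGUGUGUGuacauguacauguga
The members with an AC run follow. The first was detected on 5 arrays, the next on 3, miR-466i-3p on 2 and miR-467g on none.
miR-467f: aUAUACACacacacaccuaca
miR-466q: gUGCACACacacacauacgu
miR-466i-3p: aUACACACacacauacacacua
miR-467g: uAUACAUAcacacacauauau
Last come the 5 miRNAs outside the group that hold the run UGUGUGU and were tested, for comparison with miR-669n.
miR-1187: uAUGUGUGuguguauguguguaa
miR-574-5p: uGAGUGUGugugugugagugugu
miR-3082-5p: gACAGAGUgugugugucugugu
miR-32-3p: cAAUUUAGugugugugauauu
miR-294-3p: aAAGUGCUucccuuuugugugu

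The 7 members differed in their seeds, and none shared a seed with another sequence in the table. They did share longer runs. miR-466q and miR-466i-3p had 14 bases in a row in common, miR-467f and miR-466i-3p had 13, and miR-669n had 8 in common with each of miR-1187 and miR-574-5p. miR-466j, detected on 1 array, and miR-466k, detected on none, each had 10 in common with miR-1187. With miR-574-5p miR-466k had 9 in common and miR-466j 7. Searched on the mature strand, UGUGUGU was in 11 of 1679 mature sequences of the table (0.655%) and ACACACA in 5 (0.298%). The 54 members without a sequence do not enter these counts. Of the 7 members, 3 held the first run and 4 the second. Members with long shared runs may be read by each other's probes, which was not tested.

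Members were detected on at least 1 array in about the same share as all mouse miRNAs, and few were detected on many arrays. A miRNA counts as detected on an array where the deposited detection call is positive, and 20 of the 61 members (32.8%) were detected on at least 1 array, beside 572 of all 1881 mouse miRNAs (30.4%). Of the 61 members 2 were detected on at least 8 arrays, miR-466i-5p on 15 and miR-669n on 10, as were 225 of all 1881 miRNAs. No member was detected on all 16, as 24 miRNAs were. The miR-466 numbers gave the largest share, with 12 of 23 members detected on at least 1 array, followed by 7 of 23 for miR-669, 1 of 12 for miR-467 and 0 of 3 for miR-297.

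Detected members are counted here by arm. Shares by arm over all mouse miRNAs were not taken, so no trait of the group is read from these counts. Of 25 members named as 5p, 12 were detected on at least 1 array (48.0%), of 26 named as 3p 4 (15.4%), and of 10 without an arm in their name 4 (40.0%). Within miR-669 the counts were 5 of 8 for 5p and 1 of 11 for 3p, and within miR-466 they were 7 of 10 and 3 of 9. No member of miR-467 with a named arm was detected, among 5 of each arm. On 3 or more arrays of an age, 1 of the 25 named as 5p was detected (4.0%) and 1 of the 26 named as 3p (3.85%). By locus, 6 of the 8 members from outside Sfmbt2 were detected and 11 of the 49 from Sfmbt2 alone.

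Detection was concentrated on a few arrays of the younger mice. The number of members detected was 1, 13, 17 and 1 on 4-week replicates 1 to 4, and 17, 7, 2 and 5 on the 8-week replicates. It was 2, 1, 1 and 0 at 36 weeks and 2, 1, 3 and 2 at 58 weeks. Thus 3 arrays held 13 or more members each, and the others of the same ages held 1 to 7. Over the 4 arrays of an age, members gave 32 positive calls at 4 weeks, 31 at 8, 4 at 36 and 8 at 58 weeks, beside 1159, 866, 904 and 876 over all miRNAs. Of the 20 members ever detected, 3 were detected at 36 or 58 weeks, as were 364 of the 572 miRNAs.

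**Figure D1:**
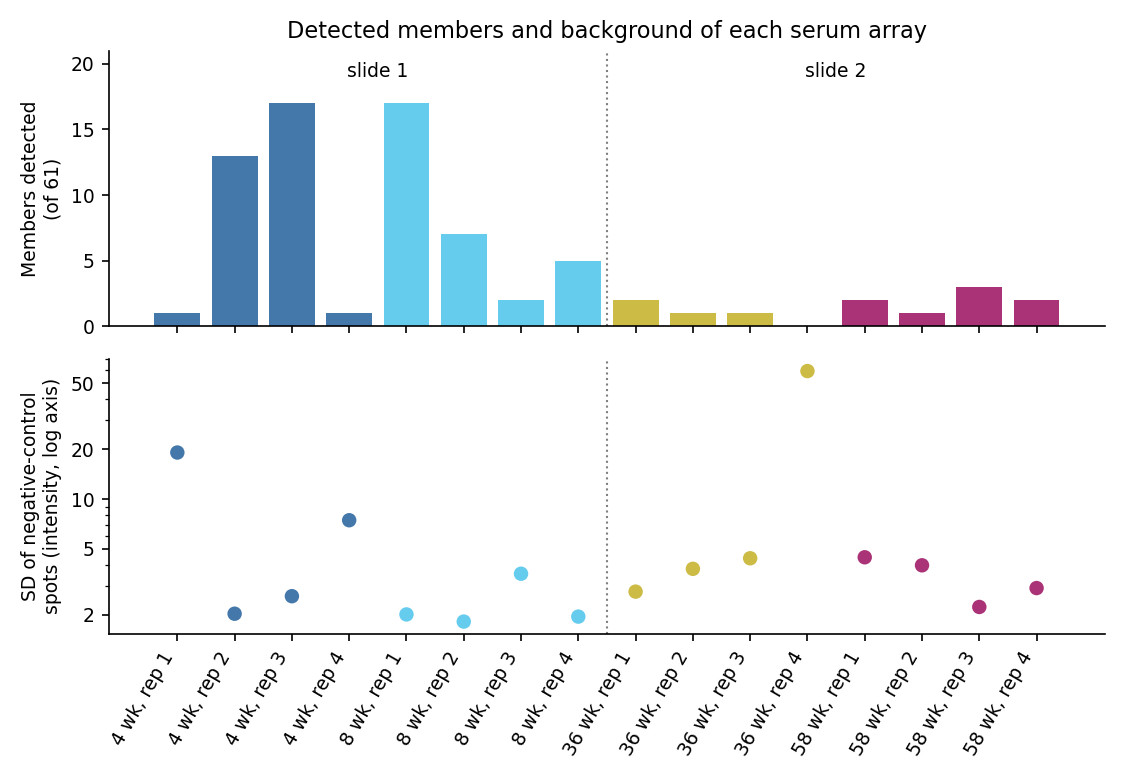
The upper panel plots, for each of the 16 serum arrays, how many of the 61 members were detected, and the lower panel plots the SD of the array's negative-control spots as intensity on a log axis. The dotted line divides the slides. Counts of 13 and 17 stand on 4-week replicates 2 and 3 and 8-week replicate 1, and all arrays of slide 2 hold 0 to 3.

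Background and slide moved with these counts. The arrays of 4 and 8 weeks lay on slide 1 and those of 36 and 58 weeks on slide 2 per the file headers, so that old and young mice cannot be told apart from slides. The SD of the negative-control spots, a measure of background noise, was 2.03, 2.59 and 2.01 on the 3 arrays with 13 or more members, and 1.82 and 1.95 on the 8-week replicates with 7 and 5. On 58-week replicate 3 it was as low, 2.23, and 3 members were detected. It was 19.1 and 7.45 on 4-week replicates 1 and 4, with 1 member each, and 59.3 on 36-week replicate 4, with none. Feature Extraction marked these last 3 arrays for evaluation. Without them 20 members were still detected on at least 1 array, and without 8-week replicate 1 there were 17. The part of background and slide in the counts was not tested.

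The serum itself carried the miRNAs known from blood. Of 14 blood and serum miRNAs 10 were detected, and miR-451a and miR-486a-5p of red cells, miR-223-3p of neutrophils and platelets and the serum reference miR-23a-3p were detected on all 16 arrays. Of these 14, 9 were tested and 0 passed in any comparison. Of 13 miRNAs from other clusters known in mouse placenta, 5 were detected on at least 1 array, with 6, 5, 1 and 0 positive calls from 4 to 58 weeks, and none was tested. Of 8 miRNAs of embryonic stem cells and testis, miR-294-3p was the 1 detected, and it did not pass. A smaller amount of a miRNA and fewer cells releasing it cannot be told apart in serum.

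For the comparisons between ages, each array was brought to a common 75th percentile, taken over the 24 miRNAs that all 16 arrays detected. The dimmest detected miRNA of an array had a scaled signal of 3.79 in the median array. Anything below was raised to this floor before log2 was taken, so that 1.92 is the lowest value possible. Testing required detection on 3 or more of the 4 arrays at some age. This held for 4 of 61 members (6.56%), miR-466i-5p, miR-669n, miR-466h-3p and miR-467f, and for 285 of all miRNAs (15.2%). Each of the 4 was read by 2 probes. Signals of different miRNAs are not set against each other, since probes differ in brightness.

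miR-466i-5p, the 5p miRNA of the hairpin whose 3p sequence is shown above, was the member detected most often. Its log2 signal was 8.50, 8.63, 9.33 and 6.62 on the 4-week replicates and 9.17, 7.56, 9.23 and 6.41 on the 8-week replicates. It was 7.83, 7.29, 7.55 and 6.87 at 36 weeks, where the last value came without detection, and 8.23, 8.36, 8.10 and 8.60 at 58 weeks. The young mice spread widely, with high values on 4-week replicate 3 and 8-week replicates 1 and 3 and low values on replicate 4 of both ages, while the 4 mice of 58 weeks lay close together. From 4 to 58 weeks the means were 8.27 ± 1.16, 8.09 ± 1.36, 7.39 ± 0.41 and 8.32 ± 0.21 (SD, n = 4 each). In order, the means ran from 36 through 8 and 4 to 58 weeks. All 4 differed from each other by less than the SD within 4 weeks or within 8 weeks.

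miR-669n, which carries a UG run, stood high and low on the same young mice. Its log2 signal was 4.49, 5.04, 5.86 and 2.0 at 4 weeks, with detection on replicates 2 and 3, and 5.93, 4.55, 5.81 and 3.28 at 8 weeks, with detection on all 4. At 36 weeks it was 4.66, 3.6, 3.96 and 1.92, with detection on replicate 1, and at 58 weeks it was 4.79, 4.71, 4.90 and 5.06, with detection on all but replicate 2. Again the highest values stood on 4-week replicate 3 and 8-week replicates 1 and 3, and 36-week replicate 4 was at the floor. Its 4 means, in the same order, were 4.35 ± 1.66, 4.89 ± 1.24, 3.53 ± 1.16 and 4.86 ± 0.15 (SD, n = 4 each). The 4-, 58- and 8-week means differed from each other by less than the SD within 4 or 8 weeks, as did the 36- and 4-week means. From the 8- and 58-week means the 36-week mean differed by more than the SD within 8 weeks but less than that within 4 weeks.

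miR-466h-3p, the tested member from Sfmbt2, was detected on arrays of 4 and 8 weeks and on none of the older ages. Its log2 signal was 5.56, 3.89, 4.11 and 3.10 at 4 weeks, with detection on replicates 2 and 3, and 3.12, 2.85, 2.84 and 3.27 at 8 weeks, with detection on all but replicate 3. It was not well above background on any array at 36 weeks (2.99, 3.32, 3.03 and 5.74) or at 58 weeks (3.65, 3.61, 1.92 and 2.52). The highest values, 5.74 and 5.56, came without detection on the arrays with the highest background. Group means were 4.17 ± 1.02, 3.02 ± 0.21, 3.77 ± 1.32 and 2.93 ± 0.85 from the youngest to the oldest mice (SD, n = 4 each).

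miR-467f, with an AC run, was detected on the same 5 arrays as miR-466h-3p. Its log2 signal was 5.48, 3.19, 3.64 and 3.30 at 4 weeks and 2.67, 2.27, 2.67 and 2.65 at 8 weeks. Without detection, it was 2.67, 2.77, 3.09 and 6.52 at 36 weeks and 3.38, 3.66, 1.92 and 2.97 at 58 weeks. As for miR-466h-3p, 36-week replicate 4 and 4-week replicate 1 were highest. Group means were 3.90 ± 1.07, 2.56 ± 0.20, 3.76 ± 1.85 and 2.98 ± 0.76 in that order (SD, n = 4 each).

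**Figure D2:**
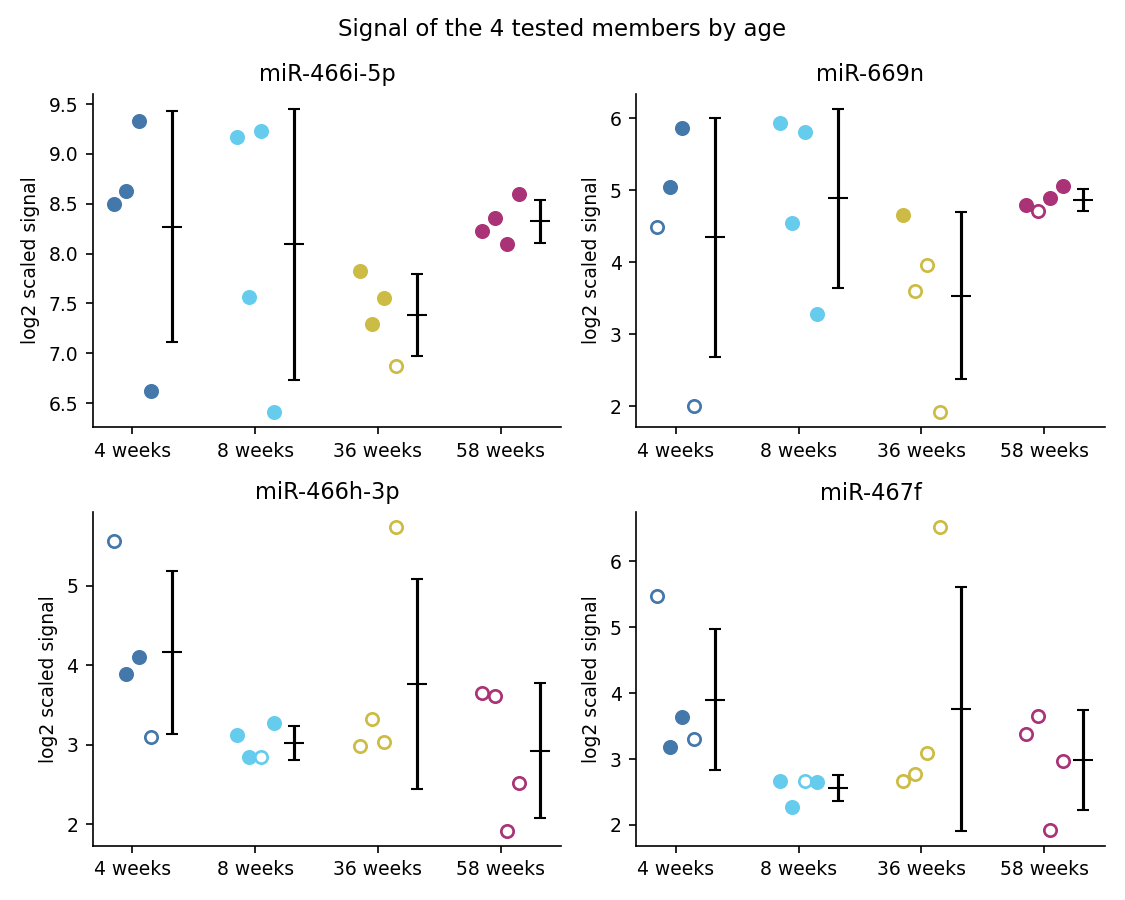
Each panel plots the log2 scaled signal of 1 tested member on the 4 arrays of each age. Points are filled where the member was detected and open where it was not, and the bar beside them is the mean with its SD. For miR-466i-5p and miR-669n the 58-week points lie close together above all 36-week points, and for miR-466h-3p and miR-467f the highest points are open.

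Across the 4 ages none of the 4 tested members passed. In limma's F test for any difference, 1 of the 285 miRNAs passed at an adjusted p under 0.05 (0.351%; 13 at an unadjusted p under 0.05) and 0 of 4 members did, also unadjusted. The members' adjusted p-values ran from 0.477 for miR-466h-3p through 0.495 for miR-467f and 0.509 for miR-669n to 0.604 for miR-466i-5p. For the slope on log2 of age, the share passing was again 0.351%, with 25 of 285 under 0.05 unadjusted, and 0 of 4 members at either. The slope per doubling of age was -0.16 ± 0.16 (SE) for miR-466h-3p (adjusted p = 0.525 in limma) and -0.08 ± 0.15 for miR-466i-5p (0.716). Those of miR-669n and miR-467f were -0.06 ± 0.19 and -0.05 ± 0.19. The members' median slope was -0.07, beside 0.12 over all 285. How many miRNAs passed the trend depended on the processing: without the 3 marked arrays 146 of 272 did and with normexp background correction 22 of 285, again with 0 of 4 members in each. With slide as a block the slopes of miR-669n and miR-466i-5p turned to 0.99 and 0.31 and those of miR-466h-3p and miR-467f were -1.17 and -1.27, and none passed (adjusted p of 0.373 or more in limma).

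The arrays of the 8-week and 4-week mice lay on 1 slide. No miRNA passed in limma (0%; 6 of 285 unadjusted), and 0 of 4 members did at either level. At 8 minus 4 weeks, miR-466h-3p and miR-467f had log2 differences of -1.14 ± 0.67 (SE) and -1.34 ± 0.78 (adjusted p = 0.536 in limma for both), while miR-669n differed by 0.54 ± 0.81 and miR-466i-5p by -0.18 ± 0.66. The members' median difference was -0.66, beside -0.72 over all 285. For miR-467f, detected on 2 arrays at 4 weeks and 3 at 8 weeks, the ages did not overlap, with 3.19 or more at 4 weeks and 2.67 or less at 8 weeks, as for 11 of the 285 miRNAs in this direction (3.86%). Without 4-week replicate 1 its difference was -0.81 and that of miR-466h-3p -0.68. Under quantile normalization they were 0.29 and 0.38.

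The mice of 58 and 36 weeks likewise shared a slide. Here miR-466i-5p and miR-669n were higher in every 58-week mouse than in any 36-week mouse. For miR-466i-5p the 36-week values ended at 7.83 and the 58-week values began at 8.10, and for miR-669n, detected on 1 of 4 arrays at 36 weeks and 3 of 4 at 58 weeks, they ended at 4.66 and began at 4.71. The ages were separate in this direction for 11 of 285 miRNAs (3.86%), among them these 2 of the 4 members, which share their profile across arrays as described below and so are not independent. The fitted differences were 0.94 ± 0.66 (SE) for miR-466i-5p and 1.33 ± 0.81 for miR-669n, and neither passed (adjusted p = 0.717 in limma for both). Both were above 0 in all 34 alternatives tried, from 0.45 to 2.13 for miR-466i-5p and from 0.34 to 1.73 for miR-669n. The separation itself was lost for both without scaling between arrays. For miR-669n it was lost in 4 further settings: 36-week replicate 4 left out, quantile normalization, normexp background correction and the total signal that the authors deposited.

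miR-466h-3p and miR-467f were detected at neither 36 nor 58 weeks. Their fitted differences, -0.85 ± 0.67 and -0.78 ± 0.78 (adjusted p = 0.717 in limma for both), lie between values not above background and give no direction. Without 36-week replicate 4, the array with the highest background, they were 0.09 and 0.42. No miRNA passed in this comparison (0%; 5 of 285 unadjusted, 0 of 4 members), and the median difference was 0.08 over the members and -0.52 over all 285.

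In the 4 pairs of ages that cross the slides, age and slide cannot be told apart. Against 4 weeks, 1 of 285 miRNAs passed in limma at 36 weeks and 1 at 58 weeks (0.351% each; 10 and 13 unadjusted), and against 8 weeks 0 passed at either age (0%; 85 at 36 weeks and 15 at 58 weeks unadjusted). In none of the 4 pairs did a member pass, adjusted or not. The smallest p-values among members belonged to miR-466i-5p and miR-669n at 36 against 4 weeks, with differences of -0.89 ± 0.66 (SE) and -0.82 ± 0.81 (adjusted p = 0.656 in limma for both). At 58 against 4 weeks they belonged to miR-466h-3p, -1.24 ± 0.67 (adjusted p = 0.864), and miR-467f, -0.92 ± 0.78 (0.998).

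Since miR-466h-3p and miR-467f were not well above background at 58 weeks, their difference from 4 weeks was also looked at as a bound. For each 58-week array the larger of the member's own signal, the floor and the dimmest detected signal of that array was taken, and the 4-week mean was set against the mean of these. The ratio of 4 to 58 weeks was 1.96 for miR-466h-3p and 1.66 for miR-467f. It is no lower limit, because the 4-week mean takes in 2 arrays without detection, among them replicate 1 with its high background. Without 4-week replicate 1 the ratios were 1.42 and 1.15, and without 58-week replicate 3 they were 1.47 and 1.25. With normexp background correction the fitted differences of 58 minus 4 weeks turned to 0.40 and 0.46, so no direction is given for either member. For the other pairs of a detected and an undetected age the ratio was under 1.

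Against 8 weeks, the smallest p-values at 36 weeks belonged to miR-669n, with a log2 difference of -1.36 ± 0.81 (adjusted p = 0.224 in limma), and miR-467f, with 1.20 ± 0.78 (0.264). miR-467f was detected on no 36-week array. Its 36-week values all lay above its 8-week values, as for 7 of the 285 miRNAs in this direction. They did so only just, with a scaled signal of 6.38 or more against 6.37 or less. Without 36-week replicate 4 its difference was -0.23, and that of miR-466h-3p went from 0.75 to -0.42. At 58 against 8 weeks the smallest p-values belonged to miR-467f, 0.42 ± 0.78 (adjusted p = 0.732), and miR-466i-5p, 0.23 ± 0.66 (0.823).

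**Figure D3:**
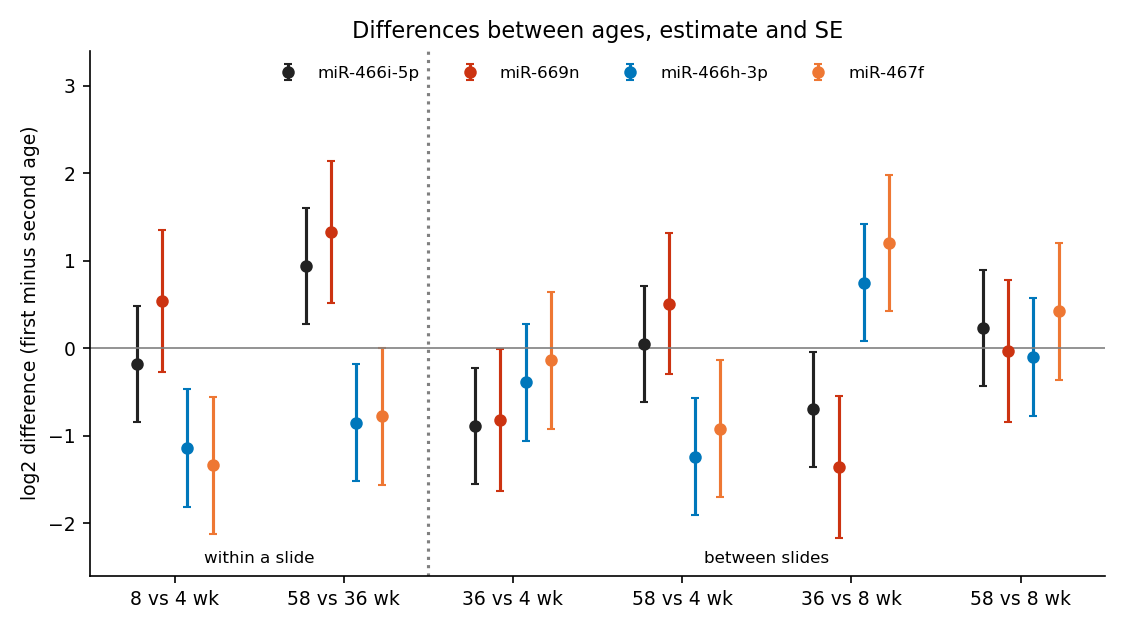
The plot gives, for each pair of ages, the fitted log2 difference of the 4 tested members (first minus second age) with its SE from limma. The 2 pairs on the left lie within a slide and the 4 on the right between slides. No difference passed, and miR-466i-5p and miR-669n lie above 0 at 58 against 36 weeks. miR-466h-3p and miR-467f were not detected at 36 or 58 weeks, so their points there rest on values not above background.

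The 4 tested members fell into 2 profiles across the arrays. The first joined miR-466i-5p and miR-669n, whose log2 signals varied together over the 16 arrays (Pearson r = 0.91, Spearman rho = 0.92, permutation p = 1e-05 for each, the smallest that 100000 permutations can give, adjusted p = 2.29e-05 and 2.67e-05 over 16 relations). Without the 2 arrays farthest from the median, 36-week replicate 4 and 4-week replicate 4, r was 0.94, and within slides of 8 arrays it was 0.93 and 0.92. The wide spread of both members within 4 and 8 weeks thus lay on the same arrays. All signals of an array share its scaling and background, and the permutations shuffled the arrays without regard to age or slide. The permutation p-values here and below therefore do not show that a relation is particular to the miRNAs named. The r usual between tested miRNAs was not taken.

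Some miRNAs from outside the group that carry a UG run had a like profile, and so did miR-468-3p and miR-2861. The RefSeq table has 8 miRNAs outside the group on the array with UGUGUGU. Of these, 7 were detected on at least 1 array, with 19, 21, 12 and 15 positive calls from 4 to 58 weeks, 5 were tested and 0 passed in any comparison. miR-669n followed miR-1187, which gave 4.68, 5.57, 6.38 and 2.71 at 4 weeks and 6.37, 4.85, 6.30 and 3.59 at 8 weeks. In older mice it gave 4.98, 3.94, 4.24 and 1.92 (36 weeks) and 5.05, 5.09, 5.23 and 5.50 (58 weeks). Over the 16 arrays r was 0.99 and rho 0.99 (permutation p = 1e-05 for each, adjusted p = 2.29e-05 and 2.67e-05), and r was 0.99 within slide 1 and 1.00 within slide 2. Of all tested miRNAs, those most like miR-669n by r over the 16 arrays were miR-1187, miR-468-3p (0.93), miR-574-5p (0.92), miR-466i-5p (0.91), miR-2861 (0.88) and miR-3082-5p (0.87). miR-468-3p and miR-2861 are not among the 8 with UGUGUGU. The sequence of miR-468-3p was not used here, so whether it carries a UG run is not known from these data. Whether the likeness goes with the run was not tested.

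miR-466i-5p followed miR-3082-5p most closely of all tested miRNAs, with r = 0.98 and rho = 0.98 over the 16 arrays (permutation p = 1e-05 for each, adjusted p = 2.29e-05 and 2.67e-05). Next by r was miR-468-3p (0.97). With miR-574-5p, which has a long UG run and lies on chromosome 5, r was 0.84 and rho 0.99 (the same p-values). Without 36-week replicate 4 and 4-week replicate 4 that r was 1.00. On 36-week replicate 4 miR-574-5p was at the floor while miR-466i-5p stood at 6.87. With miR-32-3p the r of miR-466i-5p was 0.77 and that of miR-669n 0.83 (permutation adjusted p = 0.000742 and 0.000107). miR-294-3p holds the run too and did not share the profile, with r of -0.16 and -0.46 (adjusted p = 0.567 and 0.0852). Against log2 of the SD of negative-control spots its r was 0.94 over the 16 arrays. Its highest values, 8.33 and 6.80, stood on 36-week replicate 4 and 4-week replicate 1, the arrays with the highest background. The r without those arrays was not taken. Of the UG-run miRNAs that were detected but not tested, miR-672-5p had r = 0.72 with miR-669n, and miR-6348 had r = 0.15 with miR-669n and 0.60 with background. The values for background and for the untested miRNAs are given as descriptions.

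Between 58 and 36 weeks, miR-1187, miR-574-5p and miR-3082-5p were also among the 11 miRNAs whose ages did not overlap. Their 58-week values began at 5.05, 6.43 and 5.88, and their 36-week values ended at 4.98, 6.20 and 5.74. miR-468-3p was among the 11 as well. Of these 11 miRNAs 6 thus were miR-466i-5p, miR-669n and 4 from outside the group that followed them across arrays, 3 with the UG run and miR-468-3p. Whether 1 RNA is read by several of these probes was not tested.

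**Figure D4:**
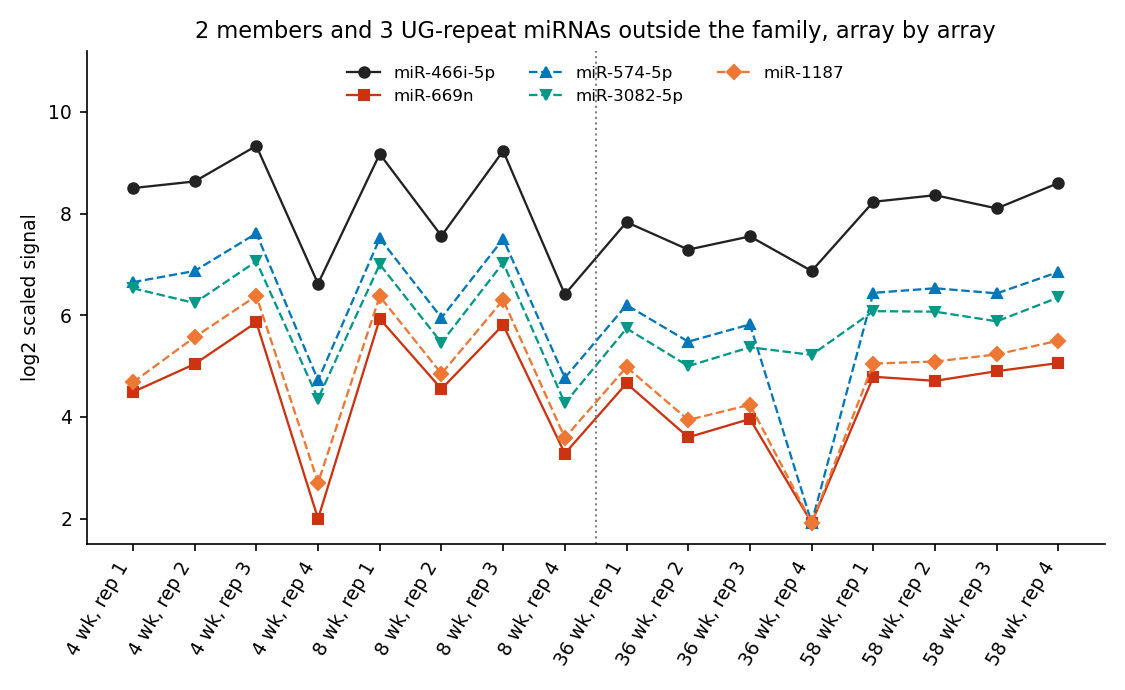
The plot gives the log2 scaled signal on each of the 16 arrays for the members miR-466i-5p and miR-669n (solid lines) and for miR-574-5p, miR-3082-5p and miR-1187 from outside the group (dashed lines). The lines rise and fall together, with peaks on 4-week replicate 3 and 8-week replicates 1 and 3. On 36-week replicate 4 miR-669n, miR-1187 and miR-574-5p are at the floor of 1.92.

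The second profile joined miR-466h-3p and miR-467f, and it moved with the background of the arrays. Their log2 signals had r = 0.94 and rho = 0.78 over 16 arrays (permutation adjusted p = 2.29e-05 and 0.000928), and r was 0.79 without 36-week replicate 4 and 4-week replicate 1. Against log2 of the SD of negative-control spots miR-467f had r = 0.92 and rho = 0.77 (permutation adjusted p = 0.000128 and 0.00132), 0.85 within slide 1 and 0.97 within slide 2, and r was 0.52 without those 2 arrays. For miR-466h-3p r was 0.78 and rho 0.40 (adjusted p = 0.00371 and 0.152) and r was 0.10 without them, so that relation rests on those arrays. For miR-669n r was -0.60 and rho -0.45 (adjusted p = 0.0184 and 0.108), and r was -0.51 without those arrays. Its r was -0.33 within slide 1, -0.91 within slide 2 and -0.13 on the 13 arrays not marked for evaluation. For miR-466i-5p r was -0.29 (adjusted p = 0.293). The second profile was not particular to the group. After miR-467f, the tested miRNAs most like miR-466h-3p by r were miR-199b-5p (0.87) and miR-6392-3p (0.82), from outside the group. miR-294-3p, also from outside, had r = 0.94 with background, as given above.

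**Figure D5:**
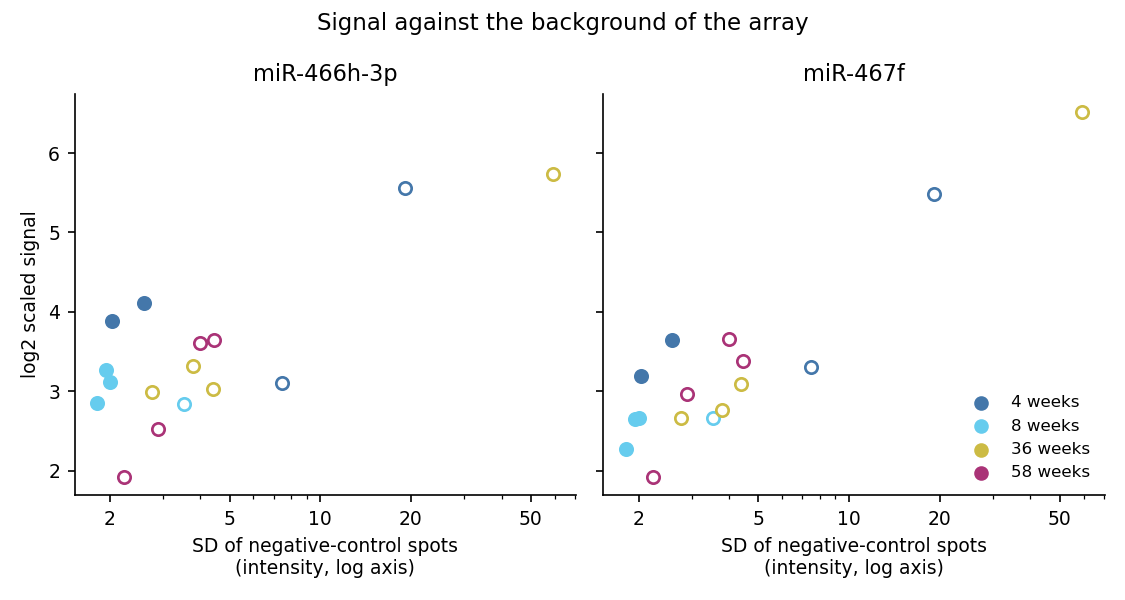
The panels plot the log2 scaled signal of miR-466h-3p and miR-467f on each array against the SD of that array's negative-control spots (intensity, log axis). Filled points were detected and open points were not. The 2 arrays with an SD of 19.1 and 59.3 carry the highest signals of both, all without detection.

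Most values of the remaining members were at the floor. The 16 members that were detected but not tested were each detected on 1 to 5 arrays, and 79.3% of their values were at the floor. Their positive calls lay on few arrays, with 9 and 13 on 4-week replicates 2 and 3, then 13, 3 and 1 on 8-week replicates 1, 2 and 4, and 1 in the oldest mice, on 58-week replicate 3. The highest value of a member over the 16 arrays had a median of 2.96 over these 16 members and reached 4.31, for miR-669l-5p on 8-week replicate 1. For 10 of the 16 the highest value stood on that array and for 3 on 4-week replicate 3, where miR-669n was high too.

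miR-669l-5p, named here after its values were seen, is not typical of these 16 members. It reached the highest value of them and had the fewest arrays at the floor, 6. Its log2 signal was 1.92, 3.43, 4.16 and 1.92 at 4 weeks and 4.31, 2.69, 4.19 and 1.92 at 8 weeks. It was 2.79, 1.92, 1.92 and 1.92 at 36 weeks and 2.06, 2.37, 2.97 and 3.06 at 58 weeks, without detection. Its r with miR-669n over the 16 arrays was 0.79, given as a description since many values are at the floor. Among the other untested members with 5 or more values above the floor that r ran from 0.58 to 0.74.

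The 41 members never detected included all 3 of miR-297 and 11 of the 12 of miR-467. For 30 of them every array was at the floor, and 96.8% of all their values were. Of the 11 with a value above the floor, 5 had their highest on 36-week replicate 4 and 5 on 4-week replicate 1, the arrays with the highest background. The highest was 6.83, for miR-467d-3p on 36-week replicate 4. At this sensitivity these members were not detectable, which does not show that they are absent from serum.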

How the data were processed

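Each array came as 1 deposited file of scanner output. Per the file headers and the submitters' processing notes, the authors made the spot intensity with Agilent Feature Extraction 11.5 (11.5.1.1 in the headers), and the processed intensity is background-subtracted, with no scaling between arrays recorded. Detection calls, the total signal of each miRNA and outlier flags are also the authors' deposited values. No spot was saturated.

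Unflagged spots (2.68% to 4.64% of the members' spots per array were flagged) were averaged per probe and then per miRNA, scaled, floored and taken to log2. The age comparisons used lmFit and eBayes of limma 3.58.1 (R 4.3.3) over all 285 tested miRNAs, with 1 mean per age, Benjamini-Hochberg adjustment within each comparison and a threshold of 0.05. The script was tested on simulated data. Relations across arrays were tested with 100000 permutations, 2-sided, over 16 relations. The arrays were shuffled freely over ages and slides. The number of arrays limits the precision, and no 2 arrays held identical values. Old and young ages lie on separate slides.

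Members tested, members detected on at least 6 arrays, members that passed and the 2 members with the smallest p per comparison are named. The members and lists were chosen with earlier results of these data known.

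Alternatives covered scaling, quantile normalization, total signal, normexp with an offset of 50 (on the median spot signal), detection filters, floors, the brightest probe, outlier spots, the variance model, array weights, slide and replicate blocks and the arrays used.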

Additional observations from a re-analysis of the deposited data

Results flagged for a closer look

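Within groups of 4 arrays, 5 values in 24 groups looked at (the 4 tested members, the members detected per array and the background, at each age) stood far from the other 3 arrays. Chance gives about 1 in 20, or 1.2 of 24, if the groups are independent. They are not, since they share arrays and several of the 5 values lie on 36-week replicate 4. The 2 counts are therefore no test. On 36-week replicate 4, miR-466h-3p was at 5.74 where the others were at 2.99 to 3.32, and miR-467f was at 6.52 where the others were at 2.67 to 3.09. Negative-control spots of the same array had an SD of 59.3, against 2.76 to 4.39. On 8-week replicate 3 that SD was 3.54, against 1.82 to 2.01. On 8-week replicate 2, miR-467f was at 2.27, against 2.65 to 2.67.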

How the results depend on the processing

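None of the 4 tested members passed at any age comparison, and this held in each of the 29 to 34 alternatives run per member and comparison, except with array weights in limma. That fit, which stopped before reaching its tolerance, called 1 member in the F test, 1 in the trend (miR-466h-3p, adjusted p = 0.049), 1 at 36 against 8 weeks (miR-669n, adjusted p = 0.0258) and 1 at 58 against 8 weeks (miR-467f, adjusted p = 0.0199). It also called 218, 196, 180 and 193 of the 285 miRNAs there, and 177 at 58 against 4 weeks and 43 at 58 against 36 weeks, where no member passed. Without the 3 marked arrays, 146 of 272 miRNAs passed the trend, 12 the F test and 9 the comparison of 58 with 4 weeks, against 1 of 285 each with all arrays. With normexp 22 of 285 passed the trend, with the brightest probe 8 and without scaling 6. No member was among them. The cause was not tested. Leaving out each array in turn gave 0 members passing. Without 8-week replicate 1, 2 or 4 only 2 members were tested. miR-466h-3p and miR-467f met the detection requirement at 8 weeks alone and dropped out there. With a replicate block, which treats the replicate number as paired, 0 members passed in each comparison. The numbers did not pair the samples: deviations of same-numbered arrays had a median r of -0.3 (-0.9 to 0.81 over 24 pairs), those of others -0.22. The 2 members whose 58-week values lay above all 36-week values became 0 without scaling, 1 with normexp, 1 with quantile normalization and 1 with the authors' total signal, and 1 to 2 when an array was left out. These settings were added after seeing the data, and the cause was not tested. The number of members detected on at least 1 array was 17 to 20 when an array was left out. Scaling by the 75th percentile over all mouse miRNAs was not run, because that percentile was -0.151 on 1 array. Members near the floor are limited by the background, which differs between arrays.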
